A study of Mus musculus with 59 samples.

Results

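A set of 10 genes of the embryonic stem (ES) cell pluripotency program were followed in embryoid bodies (EBs) that had been driven towards spinal motor neurons, namely Pou5f1, Nanog, Zfp42, Esrrb, Klf4, Tdgf1, Dppa5a, Utf1, Sall4 and Lin28a. They were chosen by symbol, and all 10 had a row among the 19613 genes of the deposited table. All EBs came from the same ES cell line, HBG3 HB9, which carries an HB9-eGFP reporter, and all were induced with retinoic acid and an agonist of hedgehog signaling. The EBs were exposed for 24 h to serum of male mice, either hemizygous carriers of a mutant human SOD1 transgene before symptoms (carrier serum, 29 arrays) or their non-carrier littermates (non-carrier serum, 30 arrays). The mice were the F1 progeny of C57BL/6 and SJL, and the labels give 9 weeks for 53 arrays and 10 weeks for 6. The arrays fell into 9 runs by their titles, each with both kinds of serum, called motorneuron, HB9MNs, A to F and tenweek here, with 4 to 11 arrays. The paper describes serum samples assayed in groups, each group with its own batch of EBs. The labels do not say that the arrays of a group came from separate cultures, so p-values measure the spread between arrays, which may be technical.

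Pluripotent cells are held in their state by a circuit of transcription factors around Pou5f1 (also called Oct4), Sox2 and Nanog, which activate each other and a wider group that includes Esrrb, Klf4, Zfp42 and Sall4. Retinoic acid shuts this circuit down as ES cells become neural progenitors, whereas Sox2 stays on in neural progenitors. Motor neurons are only part of an EB, and other cells remain beside them. In RNA of whole EBs, fewer cells of a type and less RNA per cell cannot be told apart.

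The labelled cells were first checked against their markers. Each of the 4 measured motor neuron markers, Mnx1, Isl1, Lhx3 and Chat, and each of 6 neuronal genes had a mean above the median gene of the arrays, and 8 of 9 neural progenitor markers did. Isl1, a homeobox gene of motor neurons, ranked at a mean of the 95.6 percentile of the genes in an array. Array medians lay between 7.24 and 7.51 on the log2 scale of intensity.

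Of the 10 genes, 8 had a promoter window in the RefSeq tables (GRCm38.p6), each with 250 bases before and 50 after the start of transcription. Nanog, Zfp42 and Esrrb are shown, the first for its joint Sox and octamer letters, the second for the full octamer that Pou5f1 is known to bind, and the third because its levels followed another course through the runs. The Nanog window is chr6:122707239-122707538 on the plus strand and the Zfp42 window is chr8:43306960-43307259 on the minus strand. For Esrrb the first of its windows is shown, chr12:86360867-86361166 on the plus strand. Each is written 5′ to 3′ on the strand of the gene, and capitals mark the motif matches described after them.
Nanog: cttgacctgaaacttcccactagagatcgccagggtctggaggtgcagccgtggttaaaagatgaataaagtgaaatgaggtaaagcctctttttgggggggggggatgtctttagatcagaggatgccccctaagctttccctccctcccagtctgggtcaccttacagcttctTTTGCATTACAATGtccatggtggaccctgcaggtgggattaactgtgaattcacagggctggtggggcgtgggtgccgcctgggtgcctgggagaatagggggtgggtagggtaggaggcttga
Zfp42: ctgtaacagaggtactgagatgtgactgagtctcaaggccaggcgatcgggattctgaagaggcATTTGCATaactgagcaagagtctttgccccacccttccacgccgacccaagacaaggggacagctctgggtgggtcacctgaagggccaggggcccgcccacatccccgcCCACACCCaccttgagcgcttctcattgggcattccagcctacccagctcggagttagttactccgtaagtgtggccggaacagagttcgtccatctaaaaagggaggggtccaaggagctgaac
Esrrb: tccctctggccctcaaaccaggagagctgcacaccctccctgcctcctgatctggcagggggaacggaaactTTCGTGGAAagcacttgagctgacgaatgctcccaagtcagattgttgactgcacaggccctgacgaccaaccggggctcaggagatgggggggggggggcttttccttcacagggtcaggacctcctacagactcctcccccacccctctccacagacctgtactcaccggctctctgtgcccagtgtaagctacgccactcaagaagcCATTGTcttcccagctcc
Both strands were searched. In Nanog, CATTGT (a Sox motif) was followed by 1 base and then ATGCAAA (the first 7 bases of the octamer) on the opposite strand, at bases -75 to -62 from the start. This arrangement was present in 2 of 32851 windows, which are the pair of overlapping windows of Nanog itself (0.00609% of windows). In Zfp42 the octamer ATGCAAAT, present in 1.74% of windows, was at -186 to -179, and CCACACCC (a motif of the Klf family, 3.56% of windows) was at -75 to -68. In Esrrb, TTCNNNGAA (a Stat motif, 8.3% of windows) was at -178 to -170 and CATTGT, alone in 12.6% of windows, was at 33 to 38 after the start. The Lin28a window also held CATTGT, at -96 to -91, and TTCNNNGAA at 2 places, and of the 2 windows of Pou5f1 the second held CATTGT. The windows of Klf4, Tdgf1 and Utf1 and the second window of Esrrb held none of these letters. No member window held TCAAGGTCA (0.423% of windows), which the estrogen related receptors are known to bind. These matches describe letters and not sites of binding.

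Apart from Klf4 on 5 arrays, the 10 genes were below the median gene of every array (see the plot of their rank within an array). None had a mean above the array median, and of 590 values, 10 genes on 59 arrays, only 5 were above the median of their array, all of them Klf4 in the motorneuron run. Probe affinity differs among genes, so a rank describes the brightness of a gene on this array and not the number of its transcripts. Pou5f1 had a mean log2 intensity of 5.37 ± 0.24 (SD, n = 59), with arrays between 4.92 and 5.93, and ranked at a mean percentile of 17.2. Utf1, a chromatin-bound factor of ES cells, had a mean of 5.40 ± 0.35 and a mean percentile of 17.95, and Tdgf1 (Cripto), a co-receptor of Nodal at the cell surface, had 5.57 ± 0.34 and 20.7 (both SD, n = 59). These 3 were the dimmest of the 10 by rank. Zfp42 (Rex1), a zinc finger protein widely used as an ES cell marker, had a mean log2 intensity of 6.00 ± 0.32 and a mean percentile of 27.9. Esrrb, an orphan nuclear receptor, had 6.30 ± 0.32 and 32.99, and Dppa5a, an RNA-binding protein of ES cells, had 6.39 ± 0.39 and 34.4 (SD, n = 59 for each). Sall4, a zinc finger factor, Lin28a, an RNA-binding protein that blocks the maturation of let-7, Nanog and Klf4 ranked at mean percentiles of 37.2, 38.4, 39.1 and 42.5. Sox2, by contrast, had a mean log2 intensity of 10.47 ± 0.34 (SD, n = 59) and a mean percentile of 95.1, and did not fall below the 89.2 percentile on any array.

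**Figure D1:**
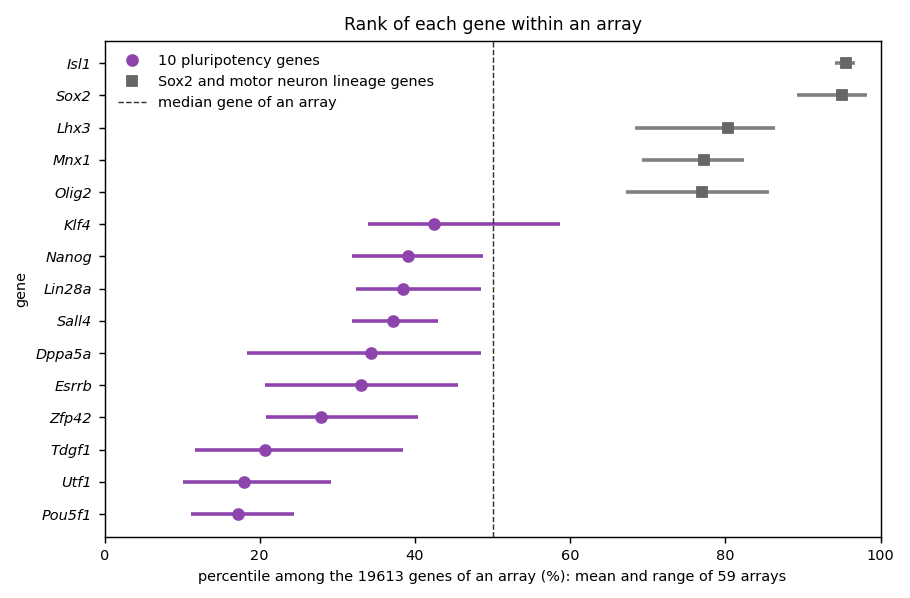
Rank of each gene among the 19613 genes of an array, in percent, with the mean over 59 arrays as a symbol and the lowest to the highest array as a line; circles are the 10 pluripotency genes and squares Sox2, Olig2, Mnx1, Isl1 and Lhx3. Only the line of Klf4 crosses the dashed line of the median gene, while the 5 reference genes lie to its right throughout.

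No detection call was used here, and a second reference was formed from 1196 rows of olfactory and vomeronasal receptor genes, which are not known to be active in these cells. Their median log2 intensity lay between 4.28 and 4.98 on the 59 arrays. Of these receptor genes, 11 had a mean above the array median. Nanog, Klf4, Sall4 and Lin28a were above the 90th percentile of the receptor genes on 59 of 59 arrays. Dppa5a was above it on 52, Esrrb on 50, Zfp42 on 41 and Tdgf1 on 11 arrays. Utf1 was above it on 3 arrays and Pou5f1 on 0, and the means of 81.9% and 82.9% of the receptor genes were below those of Pou5f1 and Utf1. RefSeq names 5 further copies of Pou5f1, 2 of Nanog, 1 of Zfp42, 2 of Tdgf1 and 2 of Dppa5a, none of which has a row of its own here, and whether probes of these 5 genes also bind such copies was not tested.

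**Figure D2:**
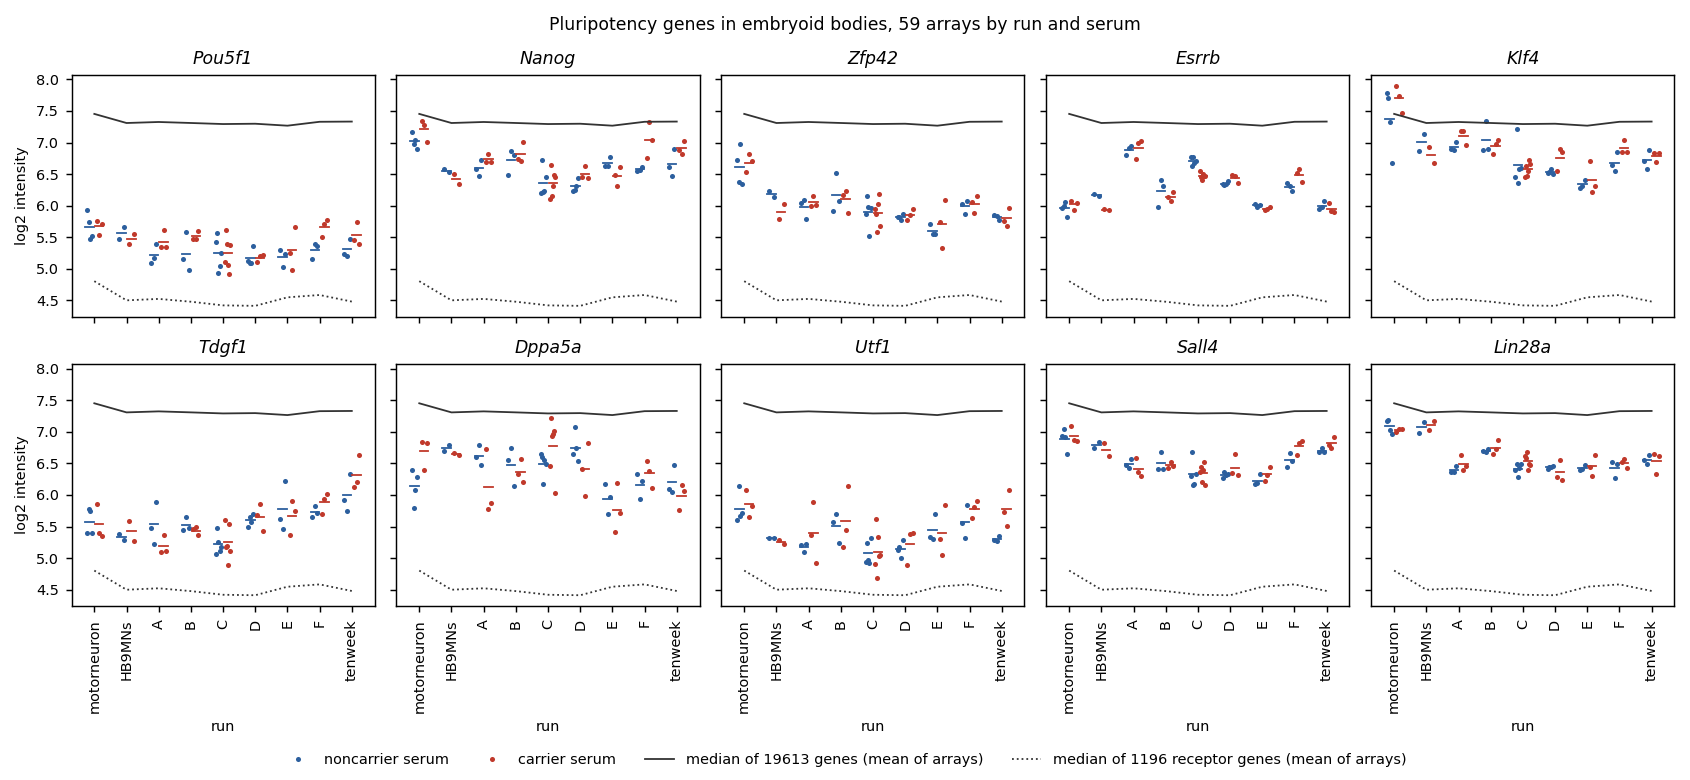
Log2 intensity of the 10 genes on 59 arrays, by run (horizontal axis) and serum (colours), with a dash at the mean of each group; the solid line is the median of all genes and the dotted line the median of the receptor genes, each as the mean of the arrays of a run. Most values lie between the lines, and those past the solid line are of Klf4, with arrays up to 7.90 in the motorneuron run and 1 array of run B at 7.34, which was below the median of its own array.

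The runs were read from the titles, and the labels name no batch of EBs. Levels differed among runs for each of the 10 genes. All 10 passed limma's moderated F-test among runs after Benjamini-Hochberg adjustment over all genes, as did 94% of all genes, so passing it does not set the 10 apart. Over pairs of runs, 175 of 360 contrasts of the 10 genes passed (48.6%), beside 43.9% over all genes. Batch of cells, array handling and scan cannot be told apart as sources of these differences. The share of all genes whose arrays did not overlap between runs was not counted, so such gaps given below are a description. The median range of run means was 0.79 on the log2 scale for the 10 genes, 0.53 for all genes and 0.57 for the receptor genes. The spread within runs and serum groups was also larger for the 10 genes than for all genes. Its median SD was 0.198 for the 10 genes, 0.129 for all genes and 0.275 for the receptor genes.

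Klf4 had the widest range. In the motorneuron run its log2 intensities were 7.90, 7.73 and 7.47 with carrier serum and 7.78, 7.71, 7.32 and 6.67 with non-carrier serum. The arrays of run E lay between 6.21 and 6.71, below all of these but the lowest. The run means were 7.51 ± 0.42 (SD, n = 7) and 6.37 ± 0.18 (SD, n = 6), a range of 1.14 on the log2 scale or 2.20-fold (adjusted p for differences among runs 6.12e-11), and the motorneuron run was above the next, run A (7.02), by 0.49 (adjusted p = 5.83e-04). No other neighbours in the order of the 9 run means of Klf4 differed beyond their spread.

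Zfp42 followed a similar order. The motorneuron arrays were 6.53, 6.82 and 6.70 with carrier serum and 6.73, 6.37, 6.98 and 6.33 with non-carrier serum, and all 7 were above the highest array of run E (5.33 to 6.08). The run means were 6.64 ± 0.24 (SD, n = 7) and 5.66 ± 0.25 (SD, n = 6), and the motorneuron run was above run B, the next at 6.13, by 0.50 (adjusted p = 5.43e-05). Over the 9 run means, Pearson's r of Zfp42 with Klf4 was 0.96. It is given as a description, since the points share arrays and the motorneuron run lies apart from the other 8 for both genes. Within runs and serum groups their r was 0.25 over 59 arrays.

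Nanog, Utf1, Sall4 and Pou5f1 were also highest in the motorneuron run. For Nanog the run mean there was 7.10 ± 0.16 (SD, n = 7), above run F (6.81) by 0.29 (adjusted p = 0.0102), and the lowest was run C at 6.36 ± 0.21 (SD, n = 11). The arrays of the motorneuron run, at 6.89 to 7.34, and of run C, at 6.10 to 6.73, did not overlap. Sall4 ranged from 6.91 ± 0.14 (SD, n = 7) in the motorneuron run to 6.28 ± 0.11 (SD, n = 6) in run E, and no neighbours in its order differed beyond their spread. Utf1 ranged from 5.81 ± 0.22 (SD, n = 7) to 5.09 ± 0.26 (SD, n = 11) in run C. Pou5f1 had the smallest range, from 5.67 ± 0.16 (SD, n = 7) to 5.17 ± 0.095 (SD, n = 7) in run D. Its adjusted p among runs was 2.86e-04 on the values as deposited, 0.268 after quantile normalization (range 0.25) and 0.145 with arrays centred on the receptor genes (range 0.32), a setting chosen after the data were seen.

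The level of the receptor genes moved with these 6 genes. Their median was highest in the motorneuron run, at 4.80 ± 0.055 (SD, n = 7), and lay between 4.41 and 4.58 in the other run means. The 6 of 10 genes that were highest in the motorneuron run are to be read beside 48.9% of all genes and 732 of 1196 receptor genes. Of the genes below the median level, which the 10 all are, 6929 of 9806 were highest there. With each array centred on its receptor genes, Klf4 and Zfp42 were still highest in the motorneuron run, with ranges of 0.88 and 0.72, while Nanog was highest in the tenweek run (range 0.36), Sall4 in tenweek (0.55), Utf1 in run F (0.42) and Pou5f1 in HB9MNs (0.32). The part of the receptor gene level in the differences among runs was not tested beyond this centring.

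Esrrb took another course. Its arrays of run A were 6.74, 6.99 and 7.03 with carrier serum and 6.80, 6.91 and 6.95 with non-carrier serum, and all 6 were above the highest array of the tenweek run (5.90 to 6.07). The run means fell from 6.90 ± 0.11 (SD, n = 6) in run A to 6.58 in C, 6.39 in F, 6.39 in D and 6.19 in B, and then lay between 5.97 and 6.05 in HB9MNs, motorneuron, E and tenweek. The steps from A to C (0.32, adjusted p = 4.11e-06), from C to F (0.19, adjusted p = 0.00369) and from D to B (0.20, adjusted p = 0.00661) passed the test, and the last 4 runs did not differ beyond their spread as neighbours. The differences among runs accounted for 89.99% of the variance of Esrrb, the highest share of the 10 genes. The range of 0.93 grew to 1.20 with arrays centred on the receptor genes. Over the 9 run means its r was -0.34 with the receptor gene median and -0.35 with Nanog.

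**Figure D3:**
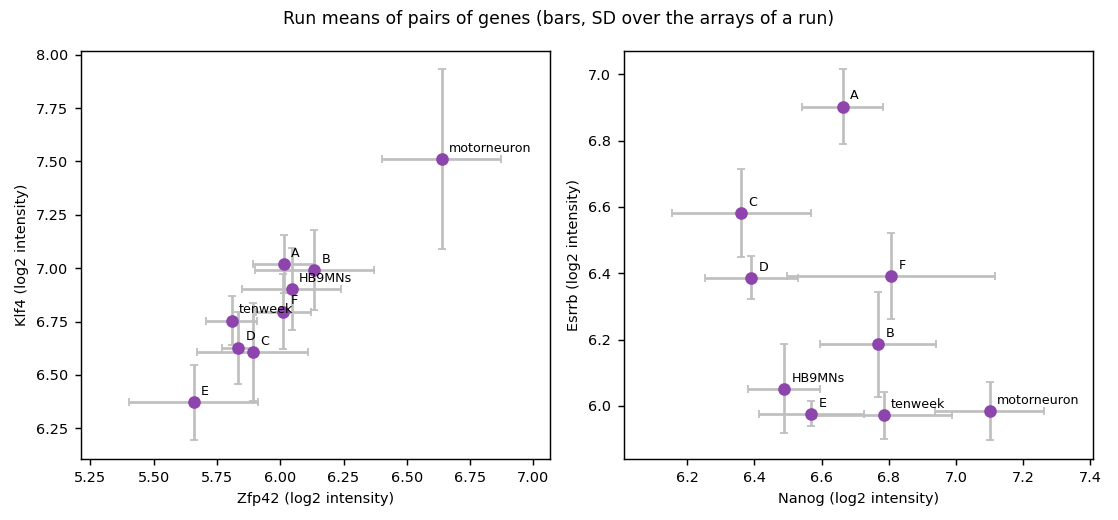
Run means of log2 intensity of Klf4 against Zfp42 (left) and of Esrrb against Nanog (right), 9 runs, with bars for the SD over the arrays of a run. On the left the motorneuron run lies apart at the upper right (6.64 and 7.51), and on the right run A is highest for Esrrb (6.90) and motorneuron for Nanog (7.10).

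Lin28a was high in a pair of runs. In HB9MNs its arrays were 7.03 and 7.18 with carrier serum and 6.99 and 7.15 with non-carrier serum, and in the motorneuron run they lay between 6.97 and 7.19. These runs overlapped each other, and none of their arrays overlapped with an array of the other 7 runs. How many of all genes were set apart in this way was not counted. The means were 7.09 ± 0.090 (SD, n = 4) in HB9MNs and 7.06 ± 0.086 (SD, n = 7) in motorneuron, the latter above run B (6.73) by 0.34 (adjusted p = 3.08e-06), and the range to run D (6.40 ± 0.11, SD, n = 7) was 0.68. Centred on the receptor genes, the range was 0.70.

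Tdgf1 was highest in the tenweek run. The arrays were 6.13, 6.20 and 6.63 with carrier serum and 5.92, 5.75 and 6.34 with non-carrier serum, so that the groups overlapped, and the run mean was 6.16 ± 0.31 (SD, n = 6). It was above run F (5.80) by 0.36 (adjusted p = 0.0194), and the lowest run was C at 5.24 ± 0.22 (SD, n = 11). The tenweek arrays are the only ones of 10 weeks, so age and run cannot be told apart.

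Dppa5a was lowest in run E, with 5.41, 6.18 and 5.71 with carrier serum and 6.17, 5.70 and 5.96 with non-carrier serum. Its run mean there was 5.85 ± 0.31 (SD, n = 6), against 6.70 ± 0.067 (SD, n = 4) in HB9MNs, and no neighbours in the order of its runs differed beyond their spread. It also had the widest spread within runs and serum groups of the 10 genes, with a residual SD of 0.30.

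**Figure D4:**
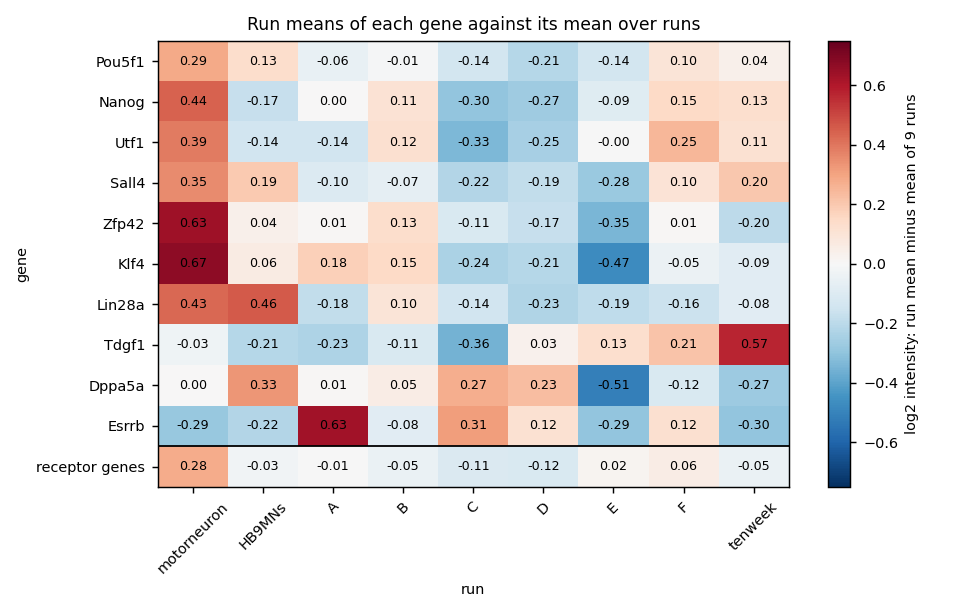
Run means of log2 intensity of each gene minus its mean over the 9 runs, with the median of the receptor genes in the last row; red is above and blue below the mean of a gene. In the motorneuron column 7 genes are above their mean by 0.29 to 0.67, beside 0.28 for the receptor genes, while Dppa5a (0.0047) is at its mean and Tdgf1 (-0.033) and Esrrb (-0.29) are below it.

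The comparison of carrier with non-carrier serum asked whether the residual levels changed with the kind of serum. None of the 10 genes passed limma's test with the run as a block and Benjamini-Hochberg adjustment over all genes, where 2.33% of all genes passed. At an unadjusted p under 0.05 there were 2 of the 10, Pou5f1 and Nanog, beside 20.7% of all genes. The change was positive, higher with carrier serum, in 8 of the 10 genes with a median of 0.043 on the log2 scale. It was positive in 61.1% of all genes (median 0.016) and in 80.9% of the receptor genes (median 0.062).

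Pou5f1 had carrier arrays between 4.92 and 5.78 (median 5.45) and non-carrier arrays between 4.92 and 5.93 (median 5.27), so the groups overlapped. The log2 change was 0.12 ± 0.050 (SE), a fold of 1.08 (95% CI 1.01 to 1.16), with an adjusted p of 0.181, and it was positive in 8 of 9 runs. In run F the arrays did not overlap, at 5.51, 5.70 and 5.78 with carrier serum and 5.15, 5.39 and 5.36 with non-carrier serum. This gap is a description. The receptor gene medians of run F did not overlap between the serum groups either, and were higher with carrier serum.

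For Nanog the carrier arrays lay between 6.10 and 7.34 (median 6.69) and the non-carrier arrays between 6.20 and 7.17 (median 6.58). The log2 change was 0.11 ± 0.046 (SE), a fold of 1.08 (95% CI 1.01 to 1.15), with an adjusted p of 0.171, and it was positive in 6 of 9 runs. In run F the arrays were 6.75, 7.32 and 7.04 with carrier serum and 6.55, 6.56 and 6.62 with non-carrier serum, without overlap. This gap too is a description, and the receptor gene medians of run F did not overlap either, as given for Pou5f1. In run E, by contrast, the carrier mean (6.47) was below that of the non-carrier arrays (6.67).

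Utf1 changed by 0.11 ± 0.067 (SE, adjusted p = 0.321, positive in 7 of 9 runs), with carrier arrays between 4.68 and 6.15 (median 5.39) and non-carrier arrays between 4.92 and 6.14 (median 5.31). Klf4 gave 0.088 ± 0.056 (SE, adjusted p = 0.357), with carrier arrays between 6.21 and 7.90 (median 6.83) and non-carrier arrays between 6.28 and 7.78 (median 6.69). Neither estimate exceeded what the spread between arrays allows. For Sall4, Lin28a, Tdgf1 and Zfp42 the estimates were 0.052, 0.034, 0.0079 and 0.0063, with adjusted p from 0.365 to 0.950. Dppa5a and Esrrb had estimates below 0, of -0.015 ± 0.082 and -0.039 ± 0.029 (SE, adjusted p = 0.930 and 0.420). With run as a block and the values as deposited, the 95% intervals of the 10 fold changes lay between 0.883 and 1.19. Larger mean changes in either direction are outside them for this model and scale only, and other settings, given below, moved the estimates.

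**Figure D5:**
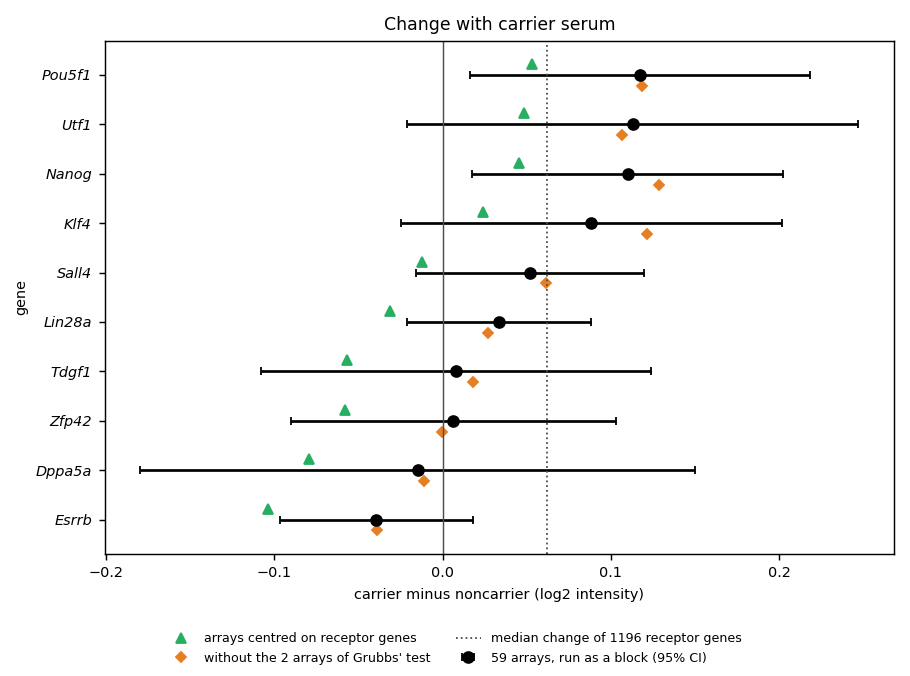
Change of each gene with carrier serum, carrier minus non-carrier in log2 intensity, as circles with 95% confidence intervals (59 arrays, run as a block), beside the values with arrays centred on the receptor genes (triangles) and without the 2 arrays of Grubbs' test (diamonds); the dotted line is the median change of the receptor genes (0.062). Only the intervals of Pou5f1 and Nanog lie above 0. Every triangle is to the left of its circle by the same amount, since centring subtracts the same value from all genes of an array.

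These counts depended on the scale. With arrays centred on the receptor genes, 4 of the 10 estimates were positive and Esrrb passed at -0.10 (adjusted p = 0.0435), where 7.89% of all genes passed. This centring moves the estimates of all genes by the same amount. When the levels of Olig2, Mnx1, Isl1 and Lhx3 entered the model beside run and serum over all 59 arrays, 31.2% of all genes passed, and of the 10, Klf4 (0.25, adjusted p = 0.00144), Nanog (0.22, adjusted p = 0.00233), Sall4 (0.12, adjusted p = 0.0113) and Pou5f1 (0.19, adjusted p = 0.0127) did. In limma with run as a block, Olig2 (-0.085), Lhx3 (-0.086) and Isl1 (0.053) themselves changed with serum at an unadjusted p under 0.05. Their adjusted p were 0.0936, 0.105 and 0.114, and Mnx1 changed by -0.035 (adjusted p = 0.588). These calls are thus adjusted for genes that may respond to serum, and the part of this in them was not tested. The paper fitted its own model of these 4 genes on non-carrier assays only. Grubbs' test on the average r of each array with its run called 2 arrays, a non-carrier array of run C and a carrier array of run E. Without them 0 of the 10 genes passed, and the smallest adjusted p was that of Nanog (0.0824).

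The change with serum was next compared between ages and between runs. None of the 10 genes passed the serum by age interaction, and 0% of all genes did. At an unadjusted p under 0.05 it held for 0 of the 10, beside 1.19% of all genes. None passed the serum by run interaction in limma, where 0.127% of all genes passed. At an unadjusted p under 0.05 there were 3, Esrrb (p = 4.98e-04, adjusted p = 0.140), Nanog (adjusted p = 0.597) and Dppa5a (adjusted p = 0.607), beside 7.94% of all genes. Esrrb was lower with carrier serum in run C, where the 6 carrier arrays lay between 6.41 and 6.55 and the 5 non-carrier arrays between 6.63 and 6.77, and in HB9MNs, with 5.94 and 5.93 against 6.18 and 6.15. In run E the carrier arrays lay between 5.93 and 5.97 and the non-carrier arrays between 5.98 and 6.02. In run F it was higher with carrier serum, with 6.52, 6.57 and 6.37 against 6.35, 6.31 and 6.23. The groups did not overlap in these 4 runs and overlapped in the other 5. The share of all genes without overlap in a run was not counted, so these gaps are a description. In run F the receptor gene medians did not overlap either. Run C probably holds more than 1 batch of EBs, and without it the change of Esrrb over the other 8 runs was 0.0054 (adjusted p = 0.921).

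The other genes of the circuit and of the cell types that EBs can hold were read from 120 genes in 16 lists. Of these, 70 had a mean above the array median, all but 2 passed the test among runs (94% of all genes) and 3 passed the serum test, 1 higher and 2 lower with carrier serum, where 2.33% of all genes passed. None of 10 further transcription factors of the ES cell circuit passed the serum test, and 4 of them were above the array median, Sox2 being both the brightest and the most variable between runs. The run means of Sox2 spanned 1.04 on the log2 scale, from 9.96 in the motorneuron run to the highest in the tenweek run. Sox2 was thus lowest where 6 of the 10 genes were highest. In that run 70 of these 120 genes, and 6929 of 9806 genes below the median level, were highest too. Other listed genes, such as Cdk1, were also lowest there. Of 11 further ES cell markers, 0 passed the serum test and only Fgf4, a growth factor of ES cells, had a mean above the array median, with run means from 7.13 in E to 7.90 in motorneuron. Of 6 genes of the primed state that follows, 0 passed, and Pou3f1, which neural cells also express, was the brightest at a mean percentile of 95.6. Fgf5, a marker of the primed state, had the widest range of that list, from 5.96 in run E to 6.69 in motorneuron.

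Tdgf1 acts with Nodal, and none of 11 further genes of Nodal signaling passed the serum test. Smad4, the shared mediator of the TGF-beta family, was the brightest (94.1 percentile), and Nodal itself had the widest range of run means, from 6.82 to 7.65. Among 9 measured genes around Lin28a and let-7, 0 passed and all 9 had means above the array median, Trim71, a let-7 target, with run means from 7.01 to 7.77 and Zcchc11, which adds uridine to let-7 precursors, at the 92.7 percentile. The 3 relatives of Sall4 were all above the array median, with Sall1 the brightest and widest in range (8.93 in HB9MNs to 9.80 in tenweek), and 0 passed.

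The Klf family held both of the genes that fell. Klf3, a repressor, fell by 0.11 on the log2 scale (adjusted p = 0.0149) and was lower with carrier serum in 9 of 9 runs, and Klf10, a TGF-beta induced member, fell by 0.16 (adjusted p = 0.0296) and was lower in 7 of 9. The remaining 11 of 13 measured relatives of Klf4 did not pass, among them Klf7, the brightest (95.1 percentile), and Klf9, with the widest range of run means (1.11). The gene that rose was Stmn2, a neuronal microtubule regulator, by 0.061 (adjusted p = 0.0400, positive in 8 of 9 runs). Without run B or run D, 0 of these 120 genes passed, and without run C 15 did.

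No gene of the germ cell, mesoderm, endoderm, neural progenitor, motor neuron or dividing cell lists passed the serum test, nor did Esrra, the measured relative of Esrrb (65.4 percentile). None of 8 genes of LIF and BMP signaling passed either, of which Id2 was the brightest (96.9 percentile) and Id3 had a range of 7.89 to 9.27. Of 8 germ cell markers, 2 had a mean above the array median, Nanos3 being the brightest (59.6 percentile) and Sycp3 the widest in range (4.73 to 6.06). Of 7 mesoderm markers, 1 (Eomes, 7.09 to 8.44), and of 7 endoderm markers, 2 (Apoa1 at the 55.3 percentile, and Foxa2, 6.78 in run A to 8.96 in tenweek) were above it. Foxa2 also marks the floor plate, which hedgehog signaling induces. Among neural progenitor genes Fabp7 was the brightest (99.9 percentile) and Pax6 the widest in range (6.52 to 7.69), and among motor neuron and neuronal genes Chat (8.73 to 9.54) and Elavl4 (10.95 to 11.40) varied most. All 7 genes of dividing cells were above the array median, Top2a being the brightest (86.9 percentile) and Cdk1 the widest in range, from 8.56 in the motorneuron run to 9.67 in run E.

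The genes most like each of the 10 were named by Pearson's r, as a description. Over the 9 run means, the closest to Esrrb were Kcnc1 (r = 0.98), Myt1l (0.98) and Zfhx3 (0.97), which have mean log2 intensities of 7.51, 9.42 and 9.61. Closest to Klf4 were Cd207 (0.998), Serpinf2 (0.998) and Upk3b (0.997), and closest to Zfp42 were Slc6a13, Slc26a4 and Rem1 (0.99 each). For Nanog they were Gdf15 (0.996), Ipcef1 (0.99) and Edn1 (0.97), and for Utf1 a Rik transcript (0.97), Slc25a21 (0.95) and again Gdf15 (0.95). Lin28a was closest to Actc1 (0.98), Nr0b1 (0.96), another factor of the ES cell circuit, and Mpzl2 (0.96). For Pou5f1 they were a Rik transcript (0.97), Palmd (0.97) and Aadacl3 (0.97), for Sall4 Olfr266 (0.98), Ccdc48 (0.97) and Lzts2 (0.97), for Tdgf1 Leprel1 (0.97), Pck2 (0.96) and Phlpp1 (0.96), and for Dppa5a Cish (0.97), a Rik transcript (0.97) and Fau (0.94). These genes were picked as the closest of 19613 over 9 points, so their r carries no test. After the mean of each run and serum group was subtracted, the highest r over 59 arrays was lower, from 0.53 (Esrrb with Npas4) to 0.89 (Klf4 with Obsl1). These r are a description too, since genes on an array share its overall signal.

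Among the 10 genes themselves, Nanog and Utf1 (r = 0.95) and Pou5f1 and Sall4 (r = 0.93) moved most alike over the 9 run means after Zfp42 and Klf4, and Tdgf1 and Dppa5a least alike (r = -0.68). With arrays centred on the receptor genes the first 2 values were 0.89 and 0.91, and that of Zfp42 and Klf4 was 0.93. The other 7 genes had an r between 0.54 and 0.84 with the receptor gene median over run means, whereas Tdgf1, Dppa5a and Esrrb had 0.097, -0.28 and -0.34.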

How the data were processed

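RNA of whole EBs was hybridised to Affymetrix exon arrays of the mouse. Deposited were intensities on a linear scale. The records of the arrays name Affymetrix Expression Console and RMA. The paper describes RMA in aroma.affymetrix, with the mean of the exons of a gene. In its account, arrays called by Grubbs' test were removed, and training and test arrays were normalized together. Which software made the deposited values was not determined here. The scale on which exons were averaged, and the genome build, are not given in the sources used here. The deposited intensities were taken to log2 with a pseudocount of 0 and no filter. Runs were read from the titles. Each gene was fitted in limma 3.58.1 (R 4.3.3) with serum and run as fixed terms, two-sided, with Benjamini-Hochberg adjustment and a call at an adjusted p under 0.05; pairs of runs were adjusted over all genes and 36 pairs together. Interactions used the same model. Simulated data with known changes were used to test the fits. The number of arrays limits the precision, and low intensities hold background, so folds may be understated.

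The members and lists were chosen with earlier results of these data known. Named were the 10 members, listed genes past the serum test, the brightest and the most variable gene of each list, the 3 genes most like each member by each measure, and 5 reference genes. Of the genes most like a member within runs, only the closest are given, as a range with 2 pairs named, and 1 listed gene is not reported here. Centring on receptor genes was chosen after the data were seen. No columns of the authors' own comparisons were used. Symbols are those of the file, and Nkx6-1 and Map2 were matched through older symbols.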

Additional observations from a re-analysis of the deposited data

Results flagged for a closer look

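Within each run and serum group of 4 to 10 arrays, the gap of the highest or lowest array to its neighbor was divided by the range of the group and compared with Dixon's 95% critical value. Of 40 such tests over the 10 genes, 2 arrays stood apart, and chance gives about 1 in 20. The first was the log2 intensity of Pou5f1 on 1 non-carrier array of run D, 5.35, above the other 3 non-carrier arrays of that run, which began at 5.09. The second was Klf4 on 1 non-carrier array of run C, 7.22, where the other non-carrier arrays lay between 6.36 and 6.60. The latter array is also called by Grubbs' test, with an average r of 0.990 with the arrays of its run. Without it and the carrier array of run E that the same test calls, the change of Klf4 with carrier serum was 0.12 (adjusted p = 0.149).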

How the results depend on the processing

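The count of members past the serum test was 0, and 4 with the 4 motor neuron genes as covariates and 1 with arrays centred on the receptor genes; no member passed with any single run left out (range 0 to 0). The 3 other listed genes past the serum test became 0 with no block, 5 with run C parted, 41 with the 4 covariates, 5 with arrays centred on their median, 5 without the Grubbs arrays and 12 with centring on receptor genes, and 0 to 15 with each run left out in turn. Values above the array median numbered 5, and 393 with the 90th percentile of the receptor genes as the reference. Zfp42 turned negative with no block (-0.013), with the replicate block (-0.0041), with median centring (-0.0011), quantile normalization (-0.044), without the Grubbs arrays (-2.33e-04) and with receptor centring (-0.058), and ranged from -0.0060 to 0.027 with runs left out. Tdgf1 turned negative with no block (-0.0050), quantile normalization (-0.045) and receptor centring (-0.057), and ranged from -0.027 to 0.048. Lin28a turned negative with quantile normalization (-0.0059) and receptor centring (-0.031), and Sall4 with receptor centring (-0.012). Esrrb turned positive with the covariates (0.0097) and ranged from -0.066 to 0.0054, and Dppa5a from -0.090 to 0.040. The cause of these changes was not tested. The remaining 152 of 180 values of serum change, and 148 of 150 ranges among runs, kept their direction and side of the threshold. Arrays that share a number in 3 runs mostly did not deviate together (8 pairs, r from -0.13 to 0.33, 1 over 0.1). The exception was a pair of the motorneuron run. Both pairs of HB9MNs have the same r (0.063) by construction, since deviations within its small groups mirror each other. The fit with the replicate block called 513 genes, none of the 10. A filter on genes below the median leaves none of the 10 to test. Intensities near those of the receptor genes limit what can be read of Pou5f1, Utf1 and Tdgf1.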
